A study of Mus musculus with 6 samples.

Results

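The 10 genes described here write, copy, remove or depend on 2 repressive chromatin marks. They are the DNA methyltransferase genes Dnmt1, Dnmt3a and Dnmt3b, the methyltransferase cofactor Uhrf1, the TET dioxygenase genes Tet1, Tet2 and Tet3, and the genes of the Polycomb repressive complex 2 (PRC2) catalytic subunits Ezh1 and Ezh2 and of its scaffold Suz12. They were chosen by name and found by mapping the Entrez IDs of the deposited count table to mouse gene symbols. All 10 were found among 40808 gene IDs, and all 10 passed the filter on low counts that left 14110 genes to test.

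RNA came from spleens of mice transplanted with bone marrow, and the labels call the cells leukaemic. The 6 libraries fall into 3 labelled NO_DOX (replicates 4, 5 and 6) and 3 labelled ON_DOX (replicates 10, 11 and 12), called here no Dox and Dox. The labels do not spell out Dox or give its dose or duration, the gene it acted on, or the strain, sex and age of the animals, and nothing says whether libraries came from separate animals, so that p-values measure only the spread between these libraries, which may be technical. The study's title concerns the control of NOTCH receptors by UVRAG, ITCH and the ESCRT machinery.

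DNA methylation is copied after replication by Dnmt1, which the protein Uhrf1 brings to the newly made strand by recognising the base pair methylated on the parental strand only. Dnmt3a and Dnmt3b methylate unmethylated sites, and the TET enzymes oxidise 5-methylcytosine, the first step of its removal. PRC2 methylates lysine 27 of histone H3. Ezh2 is its catalytic subunit in dividing cells and Ezh1 the paralogue that is more prominent in resting cells. In the blood system DNMT3A, TET2 and PRC2 genes are recurrently mutated in leukaemia, PRC2 loss among them in T cell leukaemia.

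The libraries held 5541486 to 8725767 counts. The groups differed in their cell type markers (genes written from general knowledge). In summed CPM (counts put on the same total per library with TMM factors), the 18 T cell markers stood at 3438 to 3695 without Dox and 307 to 401 with Dox. The 12 B cell markers stood at 40.4 to 47.8 and 2404 to 2560, and the 14 myeloid markers at 558 to 672 and 2950 to 2993. The 10 erythroid markers stood at 1645 to 1976 and 2254 to 2297, the 10 stromal and endothelial markers at 404 to 444 and 452 to 618, and the 6 NK cell markers at 3.22 to 5.67 and 16.6 to 28.7. T cell markers thus exceeded B cell and myeloid markers in each library without Dox, and fell below them in each library with Dox. Among the T cell markers Ptcra, part of the pre-T cell receptor, had 8, 0 and 0 counts with Dox, and among the myeloid markers the neutrophil gene Ly6g had 0 counts in each library without Dox. The myeloid markers did not all go the same way, and the macrophage genes Fcgr3 and Adgre1 were lower with Dox (log2 fold changes -1.81 and -1.68). Y-linked genes had 545 to 801 counts in the libraries without Dox and 0 in each library with Dox, and Xist had 193 to 324 and 3347 to 5669. The 10 genes are autosomal. The part of cell composition in the values below was not tested, the contributions of Dox and sex cannot be told apart, and in bulk RNA fewer cells of a type and less RNA per cell cannot be told apart either. Replicates with Dox were also less alike, with a common biological coefficient of variation of 0.515 against 0.19 without Dox.

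To show the regulatory sequence of the 5 genes that passed the test below, and of Suz12 and Ezh1, the partner and paralogue of Ezh2, 300-base promoter windows of 7 genes are printed. They run from 250 bases before to 50 bases after the RefSeq transcript start (GRCm38.p6, the build that the submitters' processing notes also name), 5′ to 3′ on the strand of the gene. Capitals mark words of the type bound by E2F factors, the activators of S phase genes. The words searched were TTTCCCGC, TTTGGCGC, TTTCGCGC and TTTGCCGC, on both strands, and no 2 matches in a window overlapped.

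Uhrf1, chr17:56304063-56304362, plus strand: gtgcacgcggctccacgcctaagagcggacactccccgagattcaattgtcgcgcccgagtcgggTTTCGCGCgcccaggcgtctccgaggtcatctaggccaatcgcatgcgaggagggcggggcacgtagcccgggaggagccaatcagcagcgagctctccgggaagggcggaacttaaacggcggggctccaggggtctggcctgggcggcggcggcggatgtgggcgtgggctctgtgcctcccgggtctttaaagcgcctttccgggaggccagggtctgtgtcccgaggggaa
Dnmt1, chr9:20952574-20952873, minus strand: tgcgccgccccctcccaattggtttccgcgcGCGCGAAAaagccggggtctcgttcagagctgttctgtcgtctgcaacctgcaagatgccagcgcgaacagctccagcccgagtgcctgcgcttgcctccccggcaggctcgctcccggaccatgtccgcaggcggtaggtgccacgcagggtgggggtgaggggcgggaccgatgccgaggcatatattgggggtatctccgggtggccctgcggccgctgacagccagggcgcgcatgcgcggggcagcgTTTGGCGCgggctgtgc
Ezh2, chr6:47594981-47595280, minus strand: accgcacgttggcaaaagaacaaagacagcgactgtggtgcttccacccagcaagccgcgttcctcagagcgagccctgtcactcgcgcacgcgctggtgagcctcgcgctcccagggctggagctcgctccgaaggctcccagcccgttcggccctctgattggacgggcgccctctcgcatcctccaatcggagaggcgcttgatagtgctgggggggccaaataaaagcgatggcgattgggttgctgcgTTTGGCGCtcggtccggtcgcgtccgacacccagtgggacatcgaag
Dnmt3b, chr2:153649199-153649498, plus strand: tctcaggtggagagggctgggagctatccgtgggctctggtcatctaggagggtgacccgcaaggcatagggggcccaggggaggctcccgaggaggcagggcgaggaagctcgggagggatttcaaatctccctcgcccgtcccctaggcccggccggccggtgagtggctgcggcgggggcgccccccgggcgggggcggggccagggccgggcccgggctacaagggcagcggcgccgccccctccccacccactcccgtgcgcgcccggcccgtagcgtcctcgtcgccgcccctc
Suz12, chr11:79992856-79993155, plus strand: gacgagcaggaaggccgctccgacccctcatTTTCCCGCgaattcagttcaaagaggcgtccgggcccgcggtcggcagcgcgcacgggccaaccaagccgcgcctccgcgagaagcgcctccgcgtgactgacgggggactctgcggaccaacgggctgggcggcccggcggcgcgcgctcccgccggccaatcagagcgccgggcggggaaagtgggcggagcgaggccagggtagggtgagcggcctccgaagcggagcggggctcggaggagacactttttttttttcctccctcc
Ezh1, chr11:101226414-101226713, minus strand: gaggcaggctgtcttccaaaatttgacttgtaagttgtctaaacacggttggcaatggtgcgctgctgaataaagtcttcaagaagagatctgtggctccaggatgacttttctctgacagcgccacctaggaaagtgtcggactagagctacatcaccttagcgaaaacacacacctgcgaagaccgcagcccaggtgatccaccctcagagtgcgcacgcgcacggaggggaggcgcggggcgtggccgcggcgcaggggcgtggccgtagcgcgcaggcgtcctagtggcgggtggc
Tet2, chr3:133544341-133544640, minus strand: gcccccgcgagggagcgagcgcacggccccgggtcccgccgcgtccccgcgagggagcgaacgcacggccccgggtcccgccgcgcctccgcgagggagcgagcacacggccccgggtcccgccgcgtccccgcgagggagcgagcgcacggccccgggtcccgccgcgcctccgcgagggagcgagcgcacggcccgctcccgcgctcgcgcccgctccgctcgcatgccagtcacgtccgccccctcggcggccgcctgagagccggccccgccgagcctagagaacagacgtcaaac

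Of the 15 windows of the 10 genes, 4 held such a word, 1 each for Dnmt1, Uhrf1, Ezh2 and Suz12. Of all 32851 windows of mouse genes in the reference, 2.26% held one (1.07% held TTTCCCGC, 0.51% TTTGGCGC, 0.32% TTTCGCGC and 0.44% TTTGCCGC). Of the 28 genes with a window in a fixed list of replication and cell cycle genes, 11 held one in some window. Counted from the first transcribed base as 1, the word began at 4 in Ezh2, at -185 in Uhrf1, at -219 in Suz12, and at -219 and 34 in Dnmt1. Of these 4 genes, 3 were lower with Dox and Suz12 was not, as given below. Dnmt3b, the fourth gene that was lower, held no such word. Dnmt1 has 2 further windows and Uhrf1 1, which held none. The windows of Ezh1 and Tet2 held none either, which says only that these letters are not there. Tet2 had 57 CpG dinucleotides in its window, more than 99.8% of all windows, and Ezh1 had 23. Reads from the 3′ end do not tell which of several starts a transcript used.

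Between Dox and no Dox, 5 of the 10 genes differed (quasi-likelihood F-test in edgeR, Benjamini-Hochberg adjustment over all tested genes, threshold 0.05). Uhrf1, Dnmt3b, Ezh2 and Dnmt1 fell with Dox, and Tet2 rose. Across all tested genes 45.6% passed the same threshold, 23.6% higher and 22.1% lower with Dox, so that the share of these genes that passed is near the background and is no result about the set. In 7 of the 10 genes the highest library of a group stayed below the lowest of the other, as it did in 59.6% of all tested genes. The median log2 fold change of the 10 genes was -0.36, beside 0.07 for all tested genes. Where a gene is said below to rise or fall by a value, the value is in log2 units. The count depended on single libraries. It was 2 without no Dox replicate 4 or 5, 3 without no Dox replicate 6 or Dox replicate 11, and 7 without Dox replicate 12. The share called over all tested genes moved too, to 31.2%, 30.6% and 31.8% without no Dox replicates 4, 5 and 6, and to 43% and 47.5% without Dox replicates 11 and 12. Uhrf1 and Tet2 passed in each of the 17 alternatives tried (other scaling factors, filters, tools, a stricter threshold, a length correction and each library left out).

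**Figure D1:**
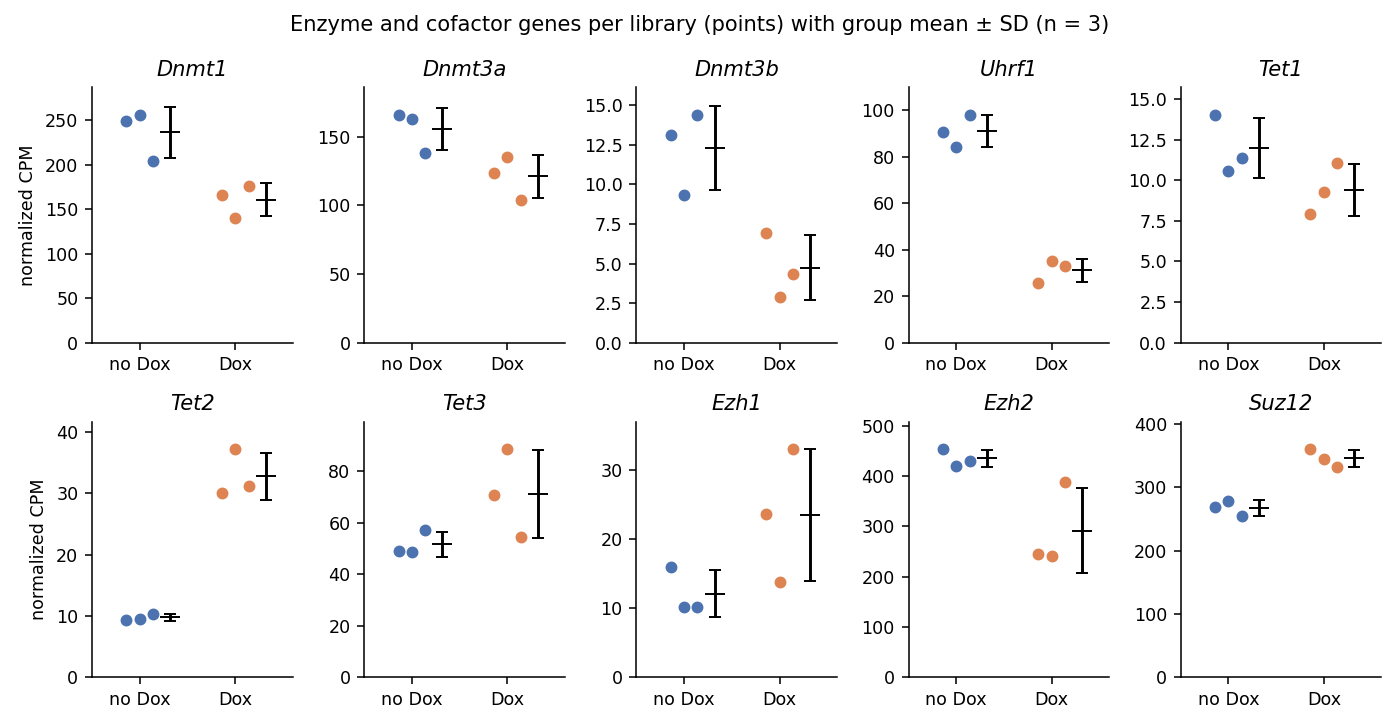
Normalized CPM (vertical axes, from 0) of each of the 10 genes in the 3 libraries without Dox (blue points) and the 3 with Dox (orange points), with the group mean ± SD (black). Uhrf1 fell from about 91 to 31 CPM and Tet2 rose from about 9.8 to 33 CPM with tight groups, while Tet1, Tet3 and Ezh1 overlapped between groups.

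The genes that copy methylation were described first. Uhrf1 (Entrez gene 18140, chr17:56303337-56323486) encodes the reader that recruits Dnmt1. Its libraries without Dox had 90.7, 84.1 and 98.0 CPM, and those with Dox had 25.6, 35.0 and 32.8 CPM, from 188 to 608 counts. Every Dox library was below every library without Dox, by more than the spread within either group. Uhrf1 was 2.92-fold lower with Dox (log2 fold change -1.55 ± 0.20 SE, edgeR adjusted p = 0.000175). Over the alternatives its log2 fold change ran from -1.69 to -1.24. Among 1691 genes of similar level (within 0.5 log2 CPM), 25.1% had a difference of this size or larger.

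Dnmt1 (Entrez gene 13433, chr9:20907206-20959888), the maintenance methyltransferase, had 248.9, 256.2 and 203.8 CPM without Dox and 165.8, 140.1 and 176.5 CPM with Dox, from 1202 to 1668 counts. The groups did not overlap, and the gap between them was narrow beside the spread. Dnmt1 was 1.47-fold lower with Dox (log2 fold change -0.56 ± 0.17 SE, edgeR adjusted p = 0.0217). This call ended without no Dox replicate 4 (adjusted p = 0.0763), no Dox replicate 5 (0.0845) or Dox replicate 11 (0.0547). It also ended when libraries were scaled by size only (log2 fold change -0.24, adjusted p = 0.242), a scaling that moved the median of all genes from 0.07 to 0.38. Once a trend of the fold changes with transcript length was taken out, the Dnmt1 estimate was -1.0. Long transcripts were shifted upward with Dox in this trend. In log2 fold change the trend was 1.04 for Tet1, 0.86 for Tet3, 0.78 for Dnmt3a and 0.74 for Tet2. It was 0.45 for Dnmt1, 0.02 for Uhrf1 and -0.12 for Ezh2, the shortest.

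Among the methyltransferases that act on unmethylated sites, Dnmt3b fell and Dnmt3a did not pass. Dnmt3b (Entrez gene 13436, chr2:153649411-153687730) had the fewest counts of the 3 methyltransferase genes, with 13.1, 9.32 and 14.4 CPM without Dox and 6.94, 2.88 and 4.35 CPM with Dox. All 3 Dox libraries were lower, with 28 to 51 counts each, so counting noise is a larger part of these values than for the other methyltransferases. It was 2.61-fold lower with Dox (log2 fold change -1.38 ± 0.47 SE, edgeR adjusted p = 0.0348). The call ended without no Dox replicate 4 (adjusted p = 0.119), 5 (0.0555) or 6 (0.109), without Dox replicate 11 (0.0591) and with scaling by library size only (0.0926).

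Dnmt3a (Entrez gene 13435, chr12:3801559-3914443) had 166.1, 162.9 and 138.2 CPM without Dox and 123.7, 135.5 and 104.1 CPM with Dox. The lowest library without Dox and the highest with Dox were close to each other. Dnmt3a did not pass the test (log2 fold change -0.36 ± 0.17 SE, edgeR adjusted p = 0.111). Its transcript is long (9685 bases), and with the length trend removed the estimate was -1.14 (adjusted p = 0.00057), while scaling by library size only gave -0.05. The size of its estimate depended on the scaling and the length correction.

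Of the TET genes, Tet2 rose, and Tet1 and Tet3 did not pass the test. Tet2 (Entrez gene 214133, chr3:133463677-133545136) had 9.40, 9.53 and 10.3 CPM without Dox and 30.1, 37.2 and 31.1 CPM with Dox, from 47 to 63 and 221 to 361 counts. Its Dox libraries were all above those without Dox, and the SD was 0.51 and 3.83 CPM. Tet2 was 3.36-fold higher with Dox (log2 fold change 1.75 ± 0.26 SE, edgeR adjusted p = 0.00047). Removing the length trend lowered this to 1.0 (adjusted p = 0.0110), and the other alternatives gave up to 2.06. Among 2489 genes of similar level, 21.9% had a difference of this size or larger.

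Tet3 (Entrez gene 194388, chr6:83362373-83457208), the TET gene with the highest counts, had 48.9, 48.6 and 57.3 CPM without Dox and 70.9, 88.5 and 54.4 CPM with Dox. Dox replicate 12 lay inside the range without Dox, while the other two Dox libraries were above it. The log2 fold change was 0.47 ± 0.22 (SE, adjusted p = 0.108 by edgeR). It was 0.61 without Dox replicate 12 (adjusted p = 0.0179) and 0.26 without Dox replicate 11 (adjusted p = 0.365). It passed with library size only (0.78, adjusted p = 0.0182) and with at least 10 counts in every library (0.58, adjusted p = 0.0409), and the sign turned with the length trend removed (-0.39, adjusted p = 0.175).

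Tet1 (Entrez gene 52463, chr10:62804570-62887469) had 14.03, 10.5 and 11.4 CPM without Dox and 7.89, 9.26 and 11.1 CPM with Dox. The groups overlapped at the highest Dox library. The log2 fold change was -0.35 ± 0.35 (SE, adjusted p = 0.447 by edgeR), and it was -1.38 (adjusted p = 0.0109) with the length trend removed. The longest Tet1 transcript has 14369 bases, the longest of the 10 genes.

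Of the PRC2 genes, Ezh2 fell, and Ezh1 and Suz12 did not pass the test. Ezh2 (Entrez gene 14056, chr6:47530274-47595270) had the highest CPM of the 10 genes in each library without Dox, with 453.2, 420.5 and 430.8 CPM without Dox and 244.7, 240.5 and 388.6 CPM with Dox. Dox replicate 12 stood well above the other two Dox libraries and close to the libraries without Dox. Ezh2 was 1.49-fold lower with Dox (log2 fold change -0.58 ± 0.20 SE, edgeR adjusted p = 0.0387). Without Dox replicate 12 the log2 fold change was -0.86 (adjusted p = 0.00023). The call ended without each other library in turn (adjusted p of 0.0901, 0.0666 and 0.0605 without no Dox replicates 4, 5 and 6, and 0.106 and 0.0995 without Dox replicates 10 and 11). It also ended with library size only (0.264), upper-quartile factors (0.0745), a strict filter of 10 counts in every library (0.0717) and the length trend removed (0.0942).

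Ezh1 (Entrez gene 14055, chr11:101191115-101226463) had 16.0, 10.1 and 10.2 CPM without Dox and 23.5, 13.8 and 33.0 CPM with Dox. Dox replicate 11 fell inside the range without Dox, and Dox replicate 12 held the highest value, as it did for Ezh2 among the Dox libraries. The log2 fold change was 0.95 ± 0.38 (SE, adjusted p = 0.0663 by edgeR). It passed without Dox replicate 11 (1.19, adjusted p = 0.0186) and with library size only (1.26, adjusted p = 0.0184). It also passed with upper-quartile factors (1.04, adjusted p = 0.046) and with at least 10 counts in every library (1.06, adjusted p = 0.0332). Without Dox replicate 12 the estimate was 0.60 (adjusted p = 0.204).

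Suz12 (Entrez gene 52615, chr11:79993106-80034123), the scaffold on which the complex is built, was the most even of the 10 genes with Dox. It had 268.6, 278.7 and 254.1 CPM without Dox and 360.0, 344.3 and 332.1 CPM with Dox. Groups did not overlap. The log2 fold change was 0.37 ± 0.14 (SE, adjusted p = 0.0527 by edgeR), just short of the threshold. It passed in 6 of the 17 alternatives. These were limma-voom (adjusted p = 0.0347, and 0.0346 with weights per group), leaving out Dox replicate 12 (0.0211) and library size only (0.0028). The others were upper-quartile factors (0.0207) and at least 10 counts in every library (0.0151). With the length trend removed the log2 fold change was 0.18 (adjusted p = 0.321).

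**Figure D2:**
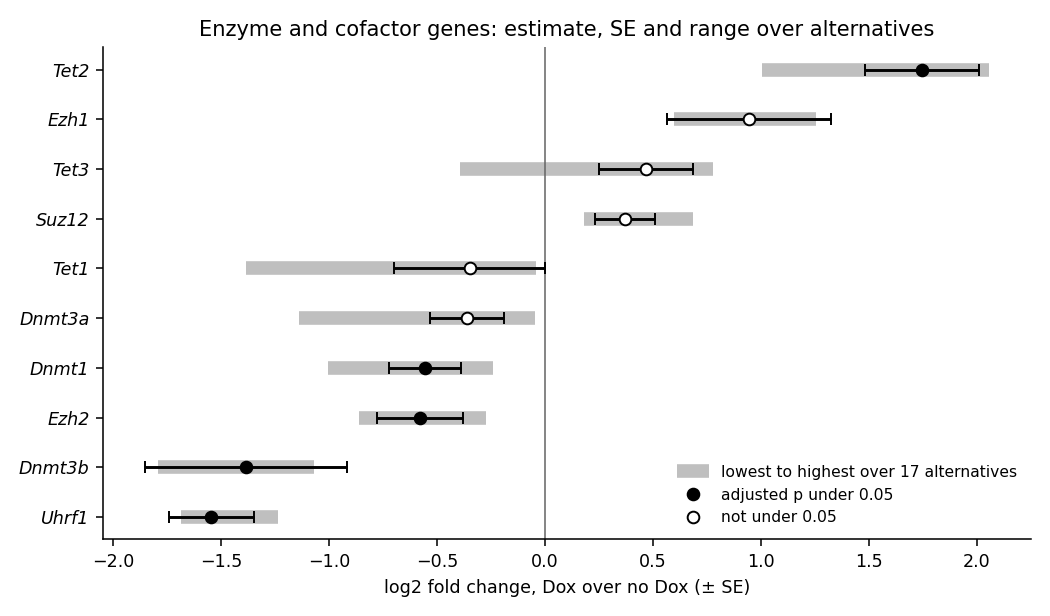
Log2 fold change of each gene, Dox over no Dox (horizontal axis; points with SE bars, filled where the adjusted p-value was under 0.05), with the lowest to highest estimate over 17 alternatives as a grey bar. Uhrf1 and Tet2 lie farthest from 0, and the grey bar of Tet3 crosses it.

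Because a ratio of a gene to another in the same library hardly depends on how libraries are scaled, the relations between family members were compared library by library. They are ratios of 3′ end counts, which are taken once per transcript and were not divided by transcript length. The log2 values of 10 ratios were tested by exact permutation of the libraries, two-sided, which for 3 against 3 cannot go below p = 0.1. In this exact test all 10 ratios reached p = 0.1 (0.1 also after adjustment over the 10). This is the smallest p-value the design can give, so the sizes and spreads carry the comparison. The ratios still depend on the length trend where the 2 transcripts differ in length.

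The log2 ratio of Ezh2 to Ezh1 took the values 4.80, 5.34 and 5.37 without Dox against 3.36, 4.10 and 3.55 with it. Ezh2 counts exceeded Ezh1 counts in every library, 36-fold without Dox and 12.7-fold with Dox as geometric means. In counts, Ezh1 made up 2.69% ± 0.62 (SD, n = 3) of Ezh1 and Ezh2 together without Dox and 7.34% ± 1.73 with Dox. Dox replicate 12, high in Ezh2 and Ezh1 alike, had a ratio inside the range of the other two Dox libraries.

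The log2 ratio of Suz12 to Ezh2 took the values -0.75, -0.59 and -0.76 without Dox against 0.56, 0.52 and -0.23 with it. Ezh2 was above Suz12 in the 3 libraries without Dox and in Dox replicate 12, and below it in Dox replicates 10 and 11.

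For the TET genes, the log2 ratio of Tet1 to Tet2 took the values 0.56, 0.14 and 0.13 without Dox against -1.89, -1.97 and -1.47 with it, the largest difference of the 10 ratios (-2.06). Their order turned over, with Tet1 above Tet2 in each library without Dox and below it in each library with Dox. Tet2 made up 13.3% ± 0.48 of TET counts without Dox and 29.1% ± 2.67 with Dox, and Tet3 70.3% ± 2.49 and 62.4% ± 5.21 (SD, n = 3 each). The log2 ratio of Tet3 to Tet2 went from a mean of 2.37 ± 0.06 to 1.09 ± 0.25 (SD, n = 3 each).

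Among the methyltransferases, the log2 ratio of Uhrf1 to Dnmt1 took the values -1.453, -1.604 and -1.054 without Dox against -2.68, -1.99 and -2.42 with it, a difference of -0.99. Uhrf1 was thus the lower of this pair in every library, and more so with Dox. The log2 ratio of Dnmt3b to Dnmt3a had means of -3.65 ± 0.43 and -4.67 ± 0.68 (SD, n = 3 each), and its groups almost touched (-4.09 for the lowest library without Dox and -4.10 for the highest with Dox). Without Dox replicate 11 the difference between groups was -0.64 in place of -1.02. With the length trend removed it was -0.42 (exact permutation p = 0.5), and that of Uhrf1 to Dnmt1 was -0.57 (exact permutation p = 0.2). Dnmt1 made up 58.4% ± 1.32 of methyltransferase counts without Dox and 56.0% ± 5.82 with Dox, shares that overlapped.

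**Figure D3:**
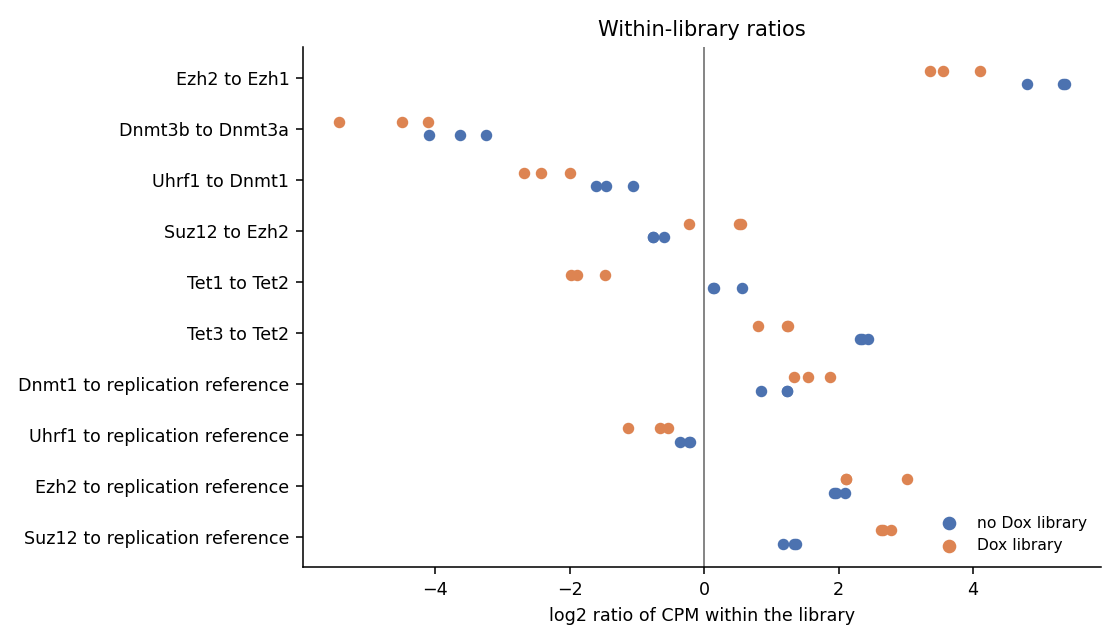
Log2 ratio of CPM within each library (horizontal axis) for the 10 ratios, with libraries without Dox in blue and with Dox in orange, 1 point per library. The Tet1 to Tet2 points lie on opposite sides of 0 in the 2 groups, and the Dnmt3b to Dnmt3a groups almost touch.

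Dnmt1, Uhrf1 and Ezh2 are known to be transcribed mostly in cycling cells, so the genes were set beside a list of 33 replication and cell cycle genes in the same libraries. Of these 33, 20 fell and 1 rose with Dox (63.6% called, against 45.6% of all tested genes). The list's median was -0.90 in log2 fold change. Gins2 had 66, 37 and 49 counts without Dox and 15, 14 and 0 with Dox. Rfc4 had 107, 107 and 136 counts without Dox and 43, 2 and 9 with Dox. Both passed the filter on low counts through the group where they are high, so their falls are only a description. They are part of the list mean used below. With at least 10 counts in every library, 18 of the list were called, beside 52.2% of all genes then tested. Pcna, the sliding clamp of DNA polymerases, fell by 2.61 log2 units (SE 0.20, adjusted p = 9.0e-06 by edgeR). The helicase subunit Mcm6 fell by 2.22 log2 units (SE 0.16, adjusted p = 6.4e-06 by edgeR). The mitotic kinase gene Aurkb fell by 2.43 log2 units (SE 0.40, adjusted p = 0.00087 by edgeR). The list was not uniform. The proliferation marker Mki67 had a log2 fold change of 0.09 ± 0.18 (SE, adjusted p = 0.698) and Top2a of -0.24 ± 0.14 (SE, adjusted p = 0.176), while the histone chaperone gene Chaf1a rose by 1.91 (SE 0.38, adjusted p = 0.0025 by edgeR).

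Relative to the mean log2 CPM of that list, Uhrf1 went from -0.26 ± 0.09 to -0.78 ± 0.32 (SD, n = 3 each), further down than the list mean. Without Dox replicate 10 this difference was -0.33 in place of -0.51. Dnmt1 went from 1.11 ± 0.22 to 1.59 ± 0.27 and Ezh2 from 1.99 ± 0.09 to 2.41 ± 0.52, so that these 2 genes fell less than the list mean. With the length trend removed, the difference for Dnmt1 was 0.02 in place of 0.48. Ezh2 rested on Dox replicate 12, without which the difference was 0.12 in place of 0.42. Suz12 went from 1.29 ± 0.11 to 2.70 ± 0.08 (SD, n = 3 each), the largest of these 4 differences (1.41).

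The other PRC2 genes are the core subunits and the accessory subunits that guide the complex. Of 10, 9 were tested, 3 rose and 4 fell (77.8% called, against 45.6% of all tested genes), and the list's median was -0.07, near the 0.07 of all tested genes. Eed, the core subunit that binds the methylated histone tail, had a log2 fold change of -0.07 ± 0.20 (SE, adjusted p = 0.789). The histone-binding subunits Rbbp4 and Rbbp7, shared with other chromatin complexes, fell by 1.596 (SE 0.14) and 1.31 (SE 0.19), with adjusted p-values of 2.1e-05 and 0.00042 (edgeR). Mtf2, a subunit that recruits PRC2 to CpG islands, went from 307 ± 11.5 to 148 ± 19.1 CPM (SD, n = 3 each) (log2 fold change -1.05, edgeR adjusted p = 0.00048).

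Aebp2, a subunit of the alternative assembly of the complex with Jarid2, fell by 0.99 log2 units (SE 0.17, adjusted p = 0.0012 by edgeR). Jarid2 itself went the other way, from 60.2 ± 2.11 to 135 ± 11.9 CPM (SD, n = 3 each) (log2 fold change 1.17, edgeR adjusted p = 0.00032). Lcor, whose locus encodes a PRC2 accessory protein, rose by 1.34 (SE 0.20), and the Mtf2 relative Phf1 rose by 1.59 (SE 0.44), with adjusted p-values of 0.00044 and 0.0150 (edgeR). Phf19, a further relative, had 10 to 40 counts and did not pass (log2 fold change 0.31 ± 0.74 (SE), adjusted p = 0.753). Epop was not tested, with 0 to 30 counts.

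Genes that work beside the methyltransferases and TET enzymes were taken from a list of 28, of which 25 were tested. With Dox 4 rose and 10 fell (56% called, against 45.6% of all tested genes), and the median log2 fold change was -0.48. Cdca7, which targets the remodeller Hells to chromatin, went from 169 ± 9.30 to 28.7 ± 3.69 CPM (SD, n = 3 each) (log2 fold change -2.56, edgeR adjusted p = 5.4e-06). Trim28, the corepressor through which zinc finger proteins silence retrotransposons, fell by 2.45 (SE 0.21, adjusted p = 1.4e-05 by edgeR). Ahcy, which clears the product inhibitor of methyltransferases, fell by 2.19 (SE 0.24, adjusted p = 7.2e-05 by edgeR).

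In the same list, Zbtb4, a methyl-CpG binding zinc finger gene, had the largest rise, from 9.11 ± 0.97 to 71.3 ± 6.89 CPM (SD, n = 3 each; log2 fold change 2.97, adjusted p = 7.5e-06 by edgeR). Usp7, a deubiquitinase that stabilises Dnmt1 and Uhrf1, rose by 1.49 (SE 0.18, adjusted p = 0.00013 by edgeR), while transcripts of those 2 genes were lower. Uhrf2, the paralogue of Uhrf1, did not pass (log2 fold change -0.48 ± 0.26 SE, edgeR adjusted p = 0.164).

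Polycomb repressive complex 1 ubiquitinates histone H2A beside the PRC2 mark. Of 25 of its genes, 3 rose and 5 fell, a share of 32% called that is below the background. Among those that fell, Cbx2 had 71, 55 and 98 counts without Dox and 3, 27 and 0 with Dox. It passed the filter on low counts through the group where it is high, so its fall is only a description. The median log2 fold change of the list was -0.14. Bmi1, the gene of a ring finger subunit, fell by 1.62 (SE 0.48), E2f6 fell by 1.09 (SE 0.31) and Rybp fell by 1.09 (SE 0.35), with adjusted p-values of 0.0194, 0.0154 and 0.0292 (edgeR). Bcorl1 rose by 1.38 (SE 0.27), Yaf2, the paralogue of Rybp, by 0.87 (SE 0.24) and Mga by 0.73 (SE 0.16), with adjusted p-values of 0.0022, 0.0156 and 0.0042 (edgeR). This count moved to 5 without no Dox replicate 4 and to 4 without no Dox replicate 6, where the shares over all tested genes were 31.2% and 31.8%.

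Of 10 tested genes whose products oppose Polycomb or mark active chromatin, 8 rose and 1 fell (90% called, against 45.6% of all tested genes, of which 23.6% rose), and the list's median was 0.97 in log2 fold change. The acetyltransferase gene Ep300 went from 59.1 ± 6.01 to 183 ± 67.9 CPM (SD, n = 3 each; log2 fold change 1.63, adjusted p = 0.00058 by edgeR). The H3K36 methyltransferase gene Nsd1 rose by 1.23 (SE 0.14, adjusted p = 9.0e-05 by edgeR). The demethylases of the PRC2 mark differed in sign. Kdm6a, which is X-linked and escapes X inactivation, rose by 1.27 (SE 0.28, adjusted p = 0.0042 by edgeR), and Kdm6b went from 108 ± 17.7 to 56.2 ± 2.40 CPM (SD, n = 3 each; log2 fold change -0.94, adjusted p = 0.0024 by edgeR). With the length trend removed, 4 of the 10 passed in place of 9, beside 42.9% of all tested genes, so that the share was then near the background.

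**Figure D4:**
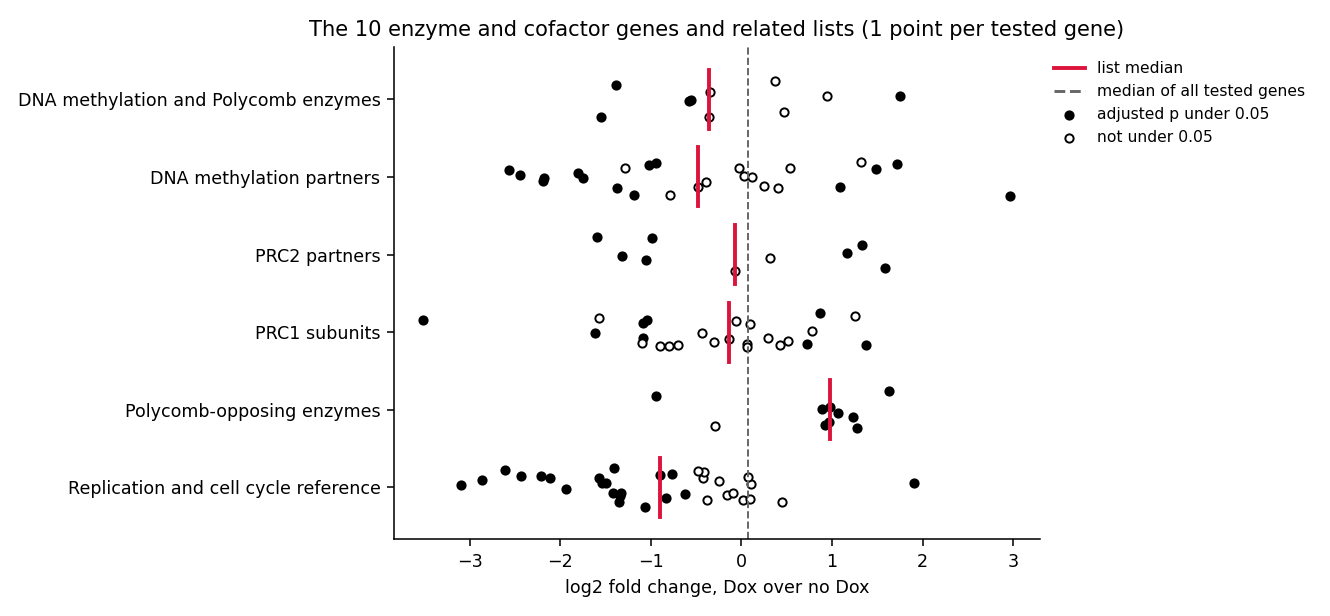
Log2 fold change, Dox over no Dox (horizontal axis), of the 10 genes and of the tested genes of 5 related lists, 1 point per gene, filled where the adjusted p-value was under 0.05, with each list's median in red and the median of all tested genes (0.07) dashed. The Polycomb-opposing genes lie mostly near 1 and the replication and cell cycle genes mostly below 0, with the 10 genes spread between.

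Likeness of pattern was measured as the root mean square difference between log2 CPM profiles over the 6 libraries, each centred on its own mean, among 7047 genes at or above median expression. Nearest to Uhrf1 was Ppid (difference 0.05), to Dnmt1 Fxr1 (0.06), to Dnmt3a Hsph1 (0.04) and to Dnmt3b Ets2 (0.12). Nearest to Tet2 was the interferon-induced gene Rsad2 (0.07), to Tet1 the cyclin gene Ccne2 (0.04) and to Tet3 Mapre2 (0.07). Nearest to Ezh2 was Ints3 (0.04), to Ezh1 Ppcdc (0.11) and to Suz12 Rangap1 (0.04). Each profile has 6 points in 2 groups, so a like difference between groups weighs most in the measure.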

How the data were processed

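Raw read counts per Entrez gene were deposited by the authors for each of the 6 libraries in 1 table. Libraries were made with the QuantSeq 3′ kit, per the labels' protocols, and STAR, featureCounts and build GRCm38 are named, without versions, in the submitters' processing notes. Annotation, strand setting, treatment of multi-mapping reads and molecular identifiers are not given in the sources used here, so counts are treated as reads. Exons of Dnmt3a, Tet2, Ezh2 and Suz12 overlap antisense genes, at least 11854 bases from the 3′ end of the gene counted.

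Symbols and positions came from RefSeq for GRCm38.p6 (39374 of 40808 IDs matched), promoter windows from RefSeq for the same build, and transcript lengths from GENCODE M21. Columns not used numbered 0. Low genes were left out by filterByExpr (minimum count of 10, total of 15), and libraries were scaled with TMM and compared with edgeR 4.0.16 in R 4.3.3 (glmQLFit, glmQLFTest, all 6 libraries, no covariate). P-values were adjusted by Benjamini-Hochberg over all 14110 genes, with a threshold of 0.05. SE is the fold change divided by the root of F. Log2 ratios used log2 CPM with a prior count of 2. The test was checked on simulated counts with the same spread in both groups. That check does not cover the unequal spread of these groups. Alternatives used DESeq2 1.42.0, limma 3.58.1 (voom, also with weights per group), other scaling and filters, and a loess trend of log2 fold change on transcript length.

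The genes and lists were chosen with earlier results of these data known. Named genes of each list were the up to 3 with the largest rise and fall among those called, at or above median expression and with groups that did not overlap. All PRC2 genes were named. A gene that this rule names is not reported here. Mki67, Top2a, Uhrf2, the marker genes and, in the closing section, the germline and target genes, Idh1, Idh2, Mat2a and Mat2b were named after their values were seen. Family shares were added after the counts were seen.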

Additional observations from a re-analysis of the deposited data

How the results depend on the processing

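No paired analysis was possible because no replicate number occurs in both groups. Of 170 values of the 10 genes under the 17 alternatives, 133 kept their direction and their side of the threshold, 21 lost the threshold, 15 gained it and 1 reversed, Tet3 with the length trend removed (-0.39). The number of the 10 genes called (5) was 2 at an adjusted p-value under 0.01, and 2 to 7 with 1 library left out. Over all tested genes 31.2% were called at that threshold, 30.6% to 47.5% with 1 library left out and 42.9% with the length trend removed, in place of 45.6%. The number higher with Dox (1) was 3 with upper-quartile factors, 4 with library size only, 4 with at least 10 counts in every library and 2 with limma-voom, with or without weights per group, and 1 to 3 with 1 library left out. The number lower (4) was 1 with library size only, 1 at an adjusted p-value under 0.01, and 1 to 4 with 1 library left out. PRC1 genes called (8) were 3 at an adjusted p-value under 0.01 and 4 to 9 with 1 library left out. Polycomb-opposing genes called (9) were 4 with the length trend removed. With at least 10 counts in every library, which leaves fewer genes to test, PRC2 target genes called (3) were 1 and germline genes called (1) were 0. Of these 4 genes, Brdt, Cdkn2a and Meis1 had entered the test through the group where they are high. Under this filter these 3 genes were no longer tested, so neither number called is a result about its list. The 10 ratios kept their direction under 9 other settings and with the length trend removed, a setting added after the ratios were seen. Higher genes were 51.6% of all calls, 64.3% with library size only. Low depth limits Dnmt3b, Tet1, Tet2 and Ezh1, which had under 100 counts in some libraries.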

Other observations

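Genes that the 2 marks are known to silence were mostly at the limit of detection. Of 10 germline genes kept off by DNA methylation in body cells, 1 was tested. Mael, Tex101, Asz1 and Slc25a31 had 0 counts in all libraries. Brdt, a testis bromodomain gene, had 75, 47 and 64 counts without Dox and 6, 20 and 23 with Dox. Ddx4 had 2, 4 and 0 counts without Dox and 12, 0 and 41 with Dox, too few and too uneven to test. Of 13 PRC2 target genes, 8 had too few counts to test. Brdt, Cdkn2a and Meis1 passed the filter on low counts through the group where they are high, so their counts are given as a description, without a test result. The numbers called that include them, given above for other settings, are no result about these lists. Cdkn2a, which encodes the cell cycle inhibitors p16INK4a and p19ARF, had 243, 327 and 340 counts without Dox and 27, 11 and 0 with Dox. Meis1, a stem and progenitor cell factor, had 8, 6 and 18 counts without Dox and 75, 99 and 94 with Dox. Hoxb4, with 87 counts or more in every library, rose by 1.28 log2 units (SE 0.24, edgeR adjusted p = 0.0017).

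Enzymes that make the cosubstrates of these proteins were uneven. Idh1, which makes the 2-oxoglutarate that TET enzymes use, had 102, 55 and 118 counts without Dox and 486, 704 and 109 with Dox. Its log2 fold change was 1.72 ± 0.52 (SE, adjusted p = 0.0211 by edgeR) although Dox replicate 12 did not stand above the libraries without Dox. The mitochondrial Idh2 fell by 1.19 log2 units (SE 0.35, adjusted p = 0.01998 by edgeR). Mat2a, which makes the methyl donor S-adenosylmethionine, had a log2 fold change of -0.39 ± 0.16 (SE, adjusted p = 0.0751 by edgeR). Its regulatory subunit Mat2b fell by 1.37 log2 units (SE 0.29, adjusted p = 0.0033 by edgeR).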
